A study of Homo sapiens with 8 samples.

Results

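S100 calcium-binding protein genes were followed in HepG2 cells, a human hepatocarcinoma cell line, after ectopic expression of GRHL2, an epithelial transcription factor. The members were 10 genes chosen by symbol (S100A2, S100A4, S100A6, S100A9, S100A10, S100A11, S100A13, S100A14, S100A16 and S100P), and all 10 were found among the 17561 genes measured by RNA-seq. Cells received either the control plasmid pcDNA3 or pGRHL2, in which the EEF1A1 promoter drives flag-tagged GRHL2 and which also encodes enhanced green fluorescent protein, and RNA was collected 48 h later. There were 4 libraries for pGRHL2 and 4 for pcDNA3, each with a replicate number from 1 to 4, and all 8 came from the same cell line in the same insulin- and dexamethasone-containing medium. The plasmids therefore differed in more than the GRHL2 insert, and their effects cannot be told apart.

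S100 proteins are small EF-hand proteins that mostly act as dimers. In most of them calcium binding opens a surface that docks onto target proteins, among them annexins at membranes and components of the cytoskeleton, and some are also released and bind receptors on other cells. Most human S100 genes lie side by side in a cluster on chromosome 1 within the epidermal differentiation complex. Many are characteristic of surface and ductal epithelia, which is why the family is of interest where an epithelial program is switched on in hepatic cells.

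Values are given on a log2 scale as deposited. In every gene, averaging a pGRHL2 library with the pcDNA3 library of its number gave 1 value shared by all 4 numbers. The libraries were therefore handled as 4 pairs, and what is high in one plasmid is equally low in the other. The mean of the 4 pair differences, pGRHL2 minus pcDNA3, is called log2 FC and is given with their SD. Depth was unknown, since counts were not analysed here. The labels were checked with the transfected gene, whose pair differences were 8.97, 9.51, 10.26 and 9.18 (log2 FC of 9.48 ± 0.57, n = 4 pairs, limma adjusted p of 4.84e-08). Of the hepatocyte markers, 6 of 6 were measured, and ALB had a mean log2 value of 16.9. The library medians of all genes lay between 6.71 and 6.73.

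Of the 10 S100 genes, 9 lie on chromosome 1 between 151982915 and 153631360 (hg38), while S100P is on the plus strand of chromosome 4 between 6693878 and 6697170. Their transcripts are short, with mean annotated lengths from 392 bases for S100P to 972 bases for S100A16. GRHL2 binds a motif whose core is close to AACCNGTT, so the promoters of the members were searched for these letters on both strands, from 250 bases before to 50 bases after each annotated start (RefSeq, GRCh38.p14). The 10 members had 14 such windows. The motif was found in 1 of the 14, that of S100A9, and in 1.73% of all 35116 promoter windows of the table. The sense-strand letters TATAAA, the core of a TATA box, were found in 4 of the 14 windows (S100A4, S100A9, S100A13 and S100P) and in 7.33% of all windows. The 250 bases before the start are shown for S100A9, as the member with the GRHL motif, for 1 start of S100A13, as the member with the smallest p, and for 1 start of S100A16, as the member with the largest log2 FC. Capitals mark AACCAGTT, which begins at position -199 from the start of S100A9, and TATAAA. The windows of the other starts of S100A13 held neither motif.
S100A9, chr1:153357604-153357853, plus strand: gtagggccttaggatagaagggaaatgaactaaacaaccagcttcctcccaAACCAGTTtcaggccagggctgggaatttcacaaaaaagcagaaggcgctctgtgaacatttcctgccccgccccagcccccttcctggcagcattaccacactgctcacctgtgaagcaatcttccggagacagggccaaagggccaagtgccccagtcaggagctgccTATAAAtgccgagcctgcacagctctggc
S100A13, chr1:153627506-153627755, minus strand: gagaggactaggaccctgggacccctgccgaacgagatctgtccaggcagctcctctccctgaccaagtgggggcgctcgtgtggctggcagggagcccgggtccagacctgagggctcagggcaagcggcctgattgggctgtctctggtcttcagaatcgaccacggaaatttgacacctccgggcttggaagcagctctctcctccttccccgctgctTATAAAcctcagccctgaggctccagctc
S100A16, chr1:153613138-153613387, minus strand: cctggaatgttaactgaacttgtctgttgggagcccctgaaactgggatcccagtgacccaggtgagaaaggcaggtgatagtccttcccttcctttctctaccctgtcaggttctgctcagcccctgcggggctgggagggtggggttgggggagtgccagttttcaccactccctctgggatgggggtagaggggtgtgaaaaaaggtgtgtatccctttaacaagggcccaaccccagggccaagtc
A match of letters is a description of the window and not evidence of binding.

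The deposited values were related to transcript length by the authors, so levels can be set side by side approximately per length. The family spanned a wide range in HepG2 cells. S100A10, which forms a tetramer with annexin A2 and is unusual in not needing calcium, was the most highly expressed member, with a mean log2 level of 11.94 ± 0.11 in pcDNA3 (SD, n = 4). S100P, S100A11, S100A6 and S100A16 followed at 10.95 ± 0.12, 10.86 ± 0.14, 10.72 ± 0.18 and 10.54 ± 0.11 in pcDNA3. The ranges of neighbours in this order overlapped from S100P down to S100A16, so that their order is not settled, and S100P and S100A11 changed places in pGRHL2. S100A4 and S100A2 were at 7.35 ± 0.09 and 7.15 ± 0.10 in pcDNA3, where their ranges were apart, whereas they overlapped in pGRHL2. S100A14 was at 5.50 ± 0.08, S100A13 at 4.23 ± 0.02 and S100A9 at 1.31 ± 0.01 in pcDNA3, each apart from its neighbours in both groups. S100A10 stood at the 98.0th percentile and S100A9 at the 12.4th percentile of mean level over all genes. Owing to this mirroring, the SD within a group is 0.5 times the SD of the pair differences and holds no variation shared by both libraries of a pair.

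The comparison of pGRHL2 with pcDNA3 asked whether these genes changed upon GRHL2 ectopic expression. None of the 10 members was called higher or lower by limma at an adjusted p under 0.05 over all genes, while 1.69% of all genes were called higher and 0.501% lower (2.19% in either direction). An unadjusted p under 0.05 was reached by 2 of the 10, S100A13 with a lower and S100A16 with a higher value in pGRHL2, beside 16% of all genes. The log2 FC of the members ran from -0.10 to 0.20 with a median of 0.039, beside a median of 0.0017 over all genes, and 7 were positive and 3 negative. The 95% intervals of the limma fit, not adjusted for multiple testing, included 0 for 8 members and together lay between -0.25 and 0.41. For 8 of the 10, the mean difference was smaller than the SD of the 4 pair differences. The exact two-sided sign-flip test over 4 pairs cannot give a p below 0.13, and this smallest value was reached by S100A9 and S100A13. In mirrored values, reaching it is the same fact as an equal sign in all 4 pairs and as groups that do not overlap. It held for 24% of all genes.

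**Figure D1:**
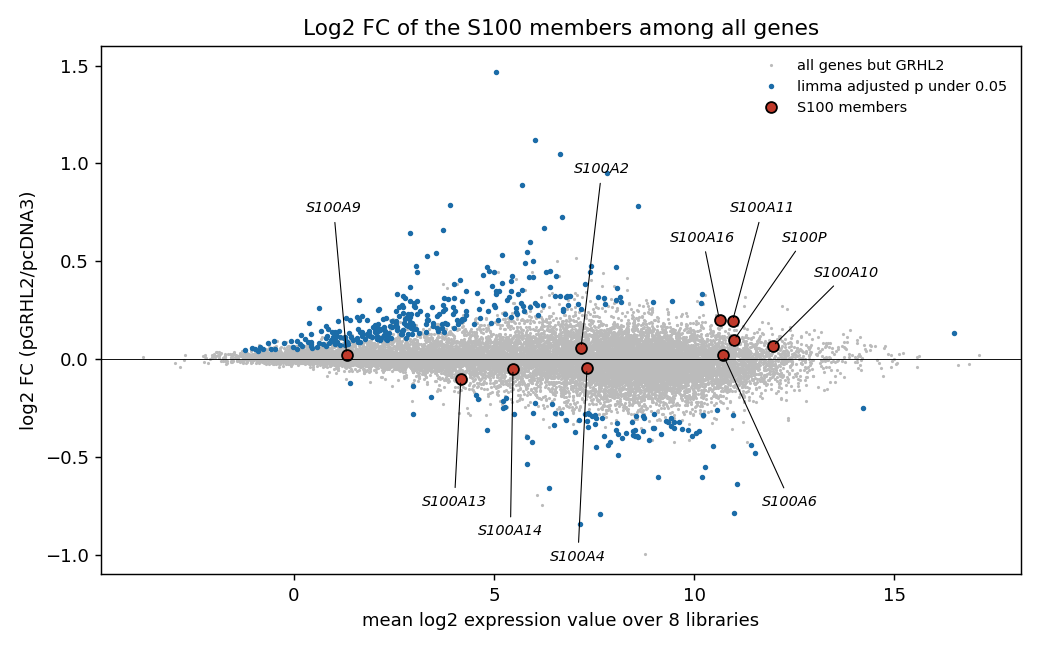
Each grey point is a gene, with its mean log2 expression value over the 8 libraries on the x axis and its log2 FC (pGRHL2/pcDNA3) on the y axis. Blue points have a limma adjusted p under 0.05, GRHL2 itself is left out, and the 10 S100 members (red) lie between -0.10 and 0.20 with none of them called.

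The highly expressed members that bind annexins and membranes are described first. S100A10 had log2 values of 12.098, 11.934, 11.888 and 12.081 in pGRHL2 libraries 1 to 4, and of 11.838, 12.001, 12.048 and 11.854 in pcDNA3 libraries 1 to 4. Libraries 1 and 4 were higher with pGRHL2 and libraries 2 and 3 were lower, so that the groups overlapped. The log2 FC of S100A10 was 0.065 ± 0.21 (SD, n = 4 pairs, limma adjusted p of 0.751). ANXA2, its annexin partner, had the same signs in the 4 pairs, with differences of 0.025, -0.18, -0.09 and 0.22 and a log2 FC of -0.0059 ± 0.17 (adjusted p in limma of 0.983).

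S100A11, which binds annexin A1, lies on chromosome 1 from 152032506 to 152047907 on the minus strand. ANXA1 itself was weakly expressed, at a mean log2 value of 1.17 (11.3th percentile of all genes). The log2 values of S100A11 were 11.18, 10.91, 10.96 and 11.18 in pGRHL2 and 10.74, 11.01, 10.96 and 10.74 in pcDNA3. The difference was large in pairs 1 and 4 (0.44 and 0.43), near 0 in pair 3 (0.0011) and negative in pair 2 (-0.10). The log2 FC was 0.19 ± 0.28 (n = 4 pairs, limma adjusted p of 0.376), and it was 0.11 without replicate 1 and 0.11 without replicate 4. GENCODE release 44 lists 8 pseudogenes named after S100A11, and 0 of them were among the genes measured. Per the methods of the study, reads of low alignment quality were not counted. Reads of S100A11 that also match such a copy may therefore be missing, and its value is uncertain to that extent. How similar the copies are was not examined, and pseudogenes of the other members were not searched for.

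S100A6 (calcyclin), the partner of the calcyclin-binding protein CACYBP, had the widest spread of the family. Its log2 values were 10.80, 10.71, 10.50 and 10.94 in pGRHL2 and 10.66, 10.74, 10.96 and 10.52 in pcDNA3. The pair differences reached from -0.45 in pair 3 to 0.42 in pair 4, and the groups overlapped over most of their range. The log2 FC of 0.020 ± 0.37 (adjusted p in limma of 0.965) was far smaller than this spread.

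S100A16, an S100 protein found in many epithelia and other tissues, lies on chromosome 1 from 153606886 to 153613145 on the minus strand. Its log2 values were 10.78, 10.59, 10.74 and 10.84 in pGRHL2 and 10.49, 10.68, 10.53 and 10.44 in pcDNA3. It was higher with pGRHL2 in 3 of 4 pairs and lower in pair 2, and the groups overlapped through these pair 2 libraries. The log2 FC of 0.20 ± 0.21 (a fold of 1.15, 95% interval 0.016 to 0.38, unadjusted limma p of 0.036) was the largest of the family, and the limma adjusted p was 0.270. It ranged from 0.13 without replicate 4 to 0.30 without replicate 2 (adjusted p in limma of 0.471 and 0.132).

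S100P, which binds and activates the membrane-cytoskeleton linker ezrin, had log2 values of 11.10, 11.09, 10.86 and 11.13 in pGRHL2 and 10.89, 10.91, 11.13 and 10.86 in pcDNA3. It was higher in pairs 1, 2 and 4, by 0.21, 0.18 and 0.27, and lower in pair 3, by -0.27. Pair 3 alone made the groups overlap. The log2 FC was 0.10 ± 0.25 (adjusted p in limma of 0.661), and it ranged from 0.040 without replicate 4 to 0.22 without replicate 3 (adjusted p in limma of 0.882 and 0.138).

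**Figure D2:**
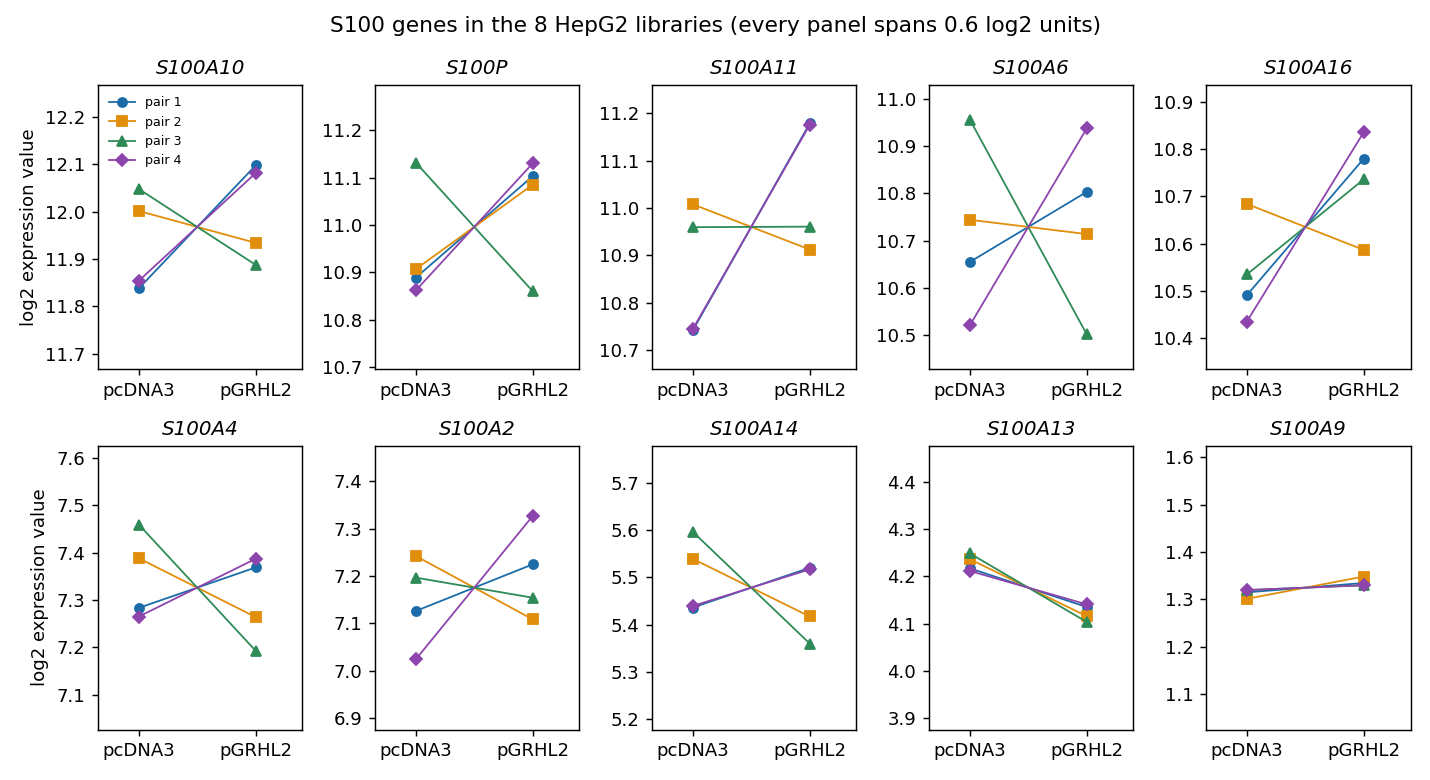
Each panel shows 1 S100 gene, with the log2 expression value on the y axis and the plasmid on the x axis, and each line joins the same-numbered pcDNA3 and pGRHL2 libraries. Lines of opposite slope cross in most panels, all 4 lines fall for S100A13 and all 4 rise slightly for S100A9.

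The members with intermediate levels had negative or small mean differences. S100A4, which binds the heavy chain of non-muscle myosin and is known from motile and mesenchymal cells, had log2 values of 7.37, 7.26, 7.19 and 7.39 in pGRHL2 and 7.28, 7.39, 7.46 and 7.26 in pcDNA3. Its log2 FC was -0.046 ± 0.18 (adjusted p in limma of 0.833). S100A2, an epithelial S100 protein that binds p53, had log2 values of 7.22, 7.11, 7.15 and 7.33 in pGRHL2 and 7.13, 7.24, 7.20 and 7.02 in pcDNA3. Its libraries with number 4 were the farthest apart, with pair differences of 0.10, -0.13, -0.042 and 0.30 in the 4 pairs and a log2 FC of 0.056 ± 0.19 (adjusted p in limma of 0.787). S100A14, an epithelial S100 protein with a degenerate calcium-binding loop, had log2 values of 5.52, 5.42, 5.36 and 5.52 in pGRHL2 and 5.44, 5.54, 5.60 and 5.44 in pcDNA3. Its libraries with number 3 were the farthest apart, with pair differences of 0.08, -0.12, -0.24 and 0.08 and a log2 FC of -0.049 ± 0.16 (adjusted p in limma of 0.766). All 3 were higher with pGRHL2 in pairs 1 and 4 and lower in pairs 2 and 3, and in all 3 the groups overlapped.

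S100A13 and S100A9 were the members whose groups did not overlap, each in its own direction. Over all genes, groups were apart with higher values in pGRHL2 for 13.4% and with lower values for 10.5% (24% in either direction), so that 1 member of 10 in each direction is near this background. S100A13, which takes part in the export of FGF1, lies on chromosome 1 from 153618787 to 153631360 on the minus strand. Its log2 values were 4.14, 4.12, 4.10 and 4.14 in pGRHL2 and 4.22, 4.24, 4.25 and 4.21 in pcDNA3. All 4 pGRHL2 libraries were below all 4 pcDNA3 libraries, by 0.07 to 0.14 in size. The log2 FC was -0.10 ± 0.03 (a fold of 0.93, 95% interval -0.17 to -0.034, n = 4 pairs), with an unadjusted limma p of 0.0087 and an adjusted p of 0.132. Of its exon bases, 33.5% are shared with other genes. S100A1, which lies on the opposite strand, shares 235 of them at chr1:153628121-153628148 and chr1:153630450-153630656, and reads were counted without strand. The bases shared with S100A1 are 10.6% of the exon bases of S100A13, and another annotated gene overlaps these exons as well. S100A1 had pair differences of -0.029, 0.046, -0.010 and 0.18. The part of shared bases in the difference of S100A13 was not tested.

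S100A9, a subunit of calprotectin that is abundant in myeloid cells and induced in keratinocytes, was close to the bottom of the range. Its log2 values were 1.33, 1.35, 1.33 and 1.33 in pGRHL2 and 1.32, 1.30, 1.32 and 1.32 in pcDNA3. All 4 pairs were higher with pGRHL2, by 0.0101 to 0.047, and the log2 FC was 0.022 ± 0.017 (adjusted p in limma of 0.540). With trends on level and transcript length removed, pairs 1 and 4 turned negative and the log2 FC was 0.0074. At such levels the rlog transformation pulls differences towards 0, and the true fold may be larger. Its calprotectin partner S100A8 was not analysed here.

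The direction of the members depended on the pair. In pair 1, 9 of the 10 were higher with pGRHL2, with a median difference of 0.12. In pair 2, 8 were lower, with a median of -0.10, and in pair 3, 7 were lower, with a median of -0.15. In pair 4, 9 were again higher, with a median of 0.25. Over all genes, the median difference stayed between 0.00078 and 0.0059 in each pair, and between 51.5% and 52.3% of genes were higher. The library medians lie close together in the deposited values, so these medians are near 0 whatever the members do.

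**Figure D3:**
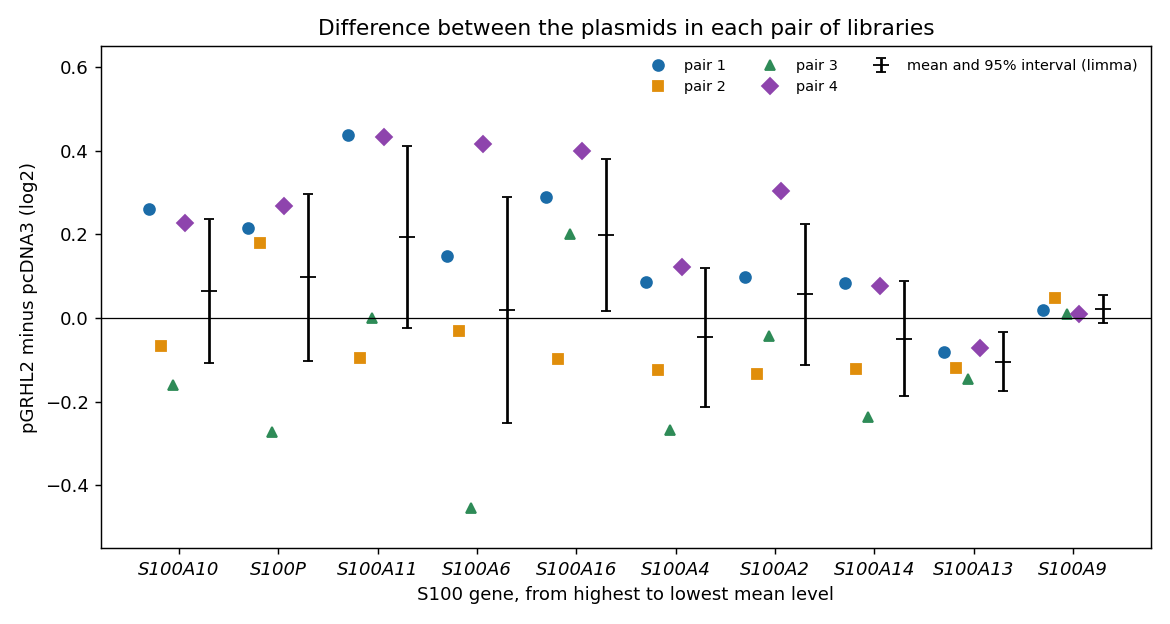
The y axis gives the log2 difference between pGRHL2 and pcDNA3, with 1 symbol per pair of libraries and the 10 S100 genes along the x axis from the highest to the lowest level. Black bars are the limma log2 FC with its 95% interval, which excludes 0 for S100A16 and S100A13 only, and pairs 1 and 4 lie above pairs 2 and 3 for most genes.

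The same succession of signs was shared by much of the family. S100A2, S100A4, S100A6, S100A10 and S100A14 were higher in pairs 1 and 4 and lower in pairs 2 and 3, which was the case for 4.16% of all genes. With S100A11 and S100A16, which were lower in pair 2 but not in pair 3, 7 of the 10 were higher in pairs 1 and 4 and lower in pair 2, as were 9.52% of all genes. This succession was noticed in these values and is given without a test. All members but S100P lie in 1 region of chromosome 1, and all have short transcripts and were measured in the same libraries, so they are not independent of each other. With trends on level and transcript length removed from each pair, again 7 of the 10 were higher in pairs 1 and 4 and lower in pair 2. In pair 3, S100A2 then turned slightly positive (0.0020), while S100A4, S100A6, S100A10 and S100A14 stayed lower. Among the 10858 genes with a mean value of at least 5, the SD of the pair differences stood above the 80th percentile for 7 of the 8 S100 members at such levels, and at the 72.8th percentile for S100A14.

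Hepatocyte markers had another succession of signs. In pair 2, all 6 (ALB, APOA1, TTR, AFP, SERPINA1 and HNF4A) were higher with pGRHL2, with a median of 0.29. In pairs 1 and 4, 4 of the 6 were lower, with medians of -0.028 and -0.12. In pair 3, 5 of the 6 were lower, with a median of -0.066, the direction of most S100 members in that pair. The log2 summed level of the markers ranged from 18.1 to 18.3 in pGRHL2 and from 18.0 to 18.2 in pcDNA3. Their part in the differences of the S100 genes was not tested.

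**Figure D4:**
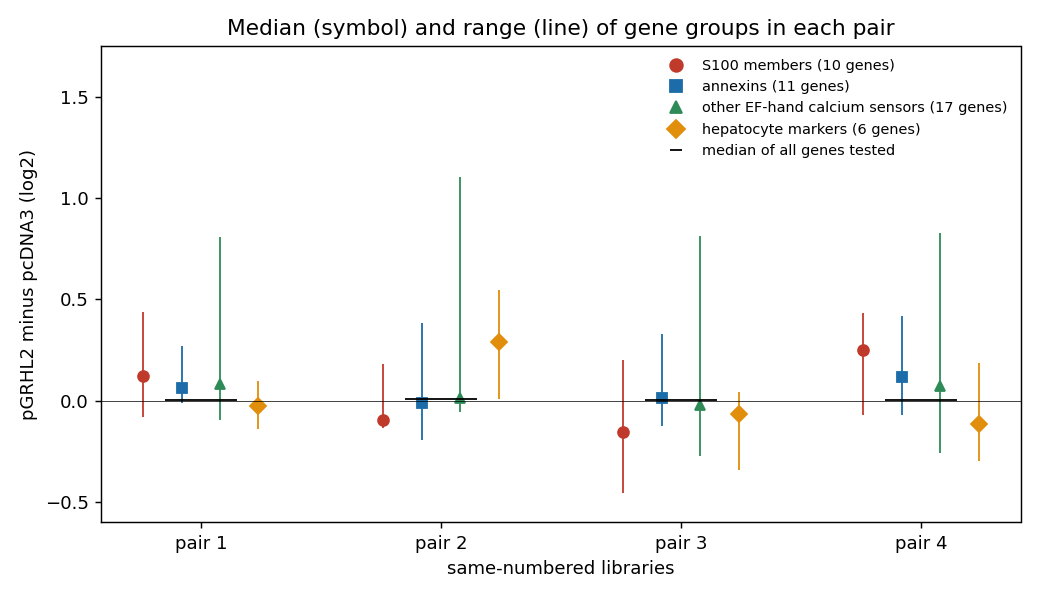
For each pair of same-numbered libraries, symbols give the median and lines the lowest and highest log2 difference (pGRHL2 minus pcDNA3) over the genes of 4 groups, and the black dash gives the median of all genes. Medians of the S100 members lie above 0 in pairs 1 and 4 (0.12 and 0.25) and below it in pairs 2 and 3. Annexin medians are above 0 in pairs 1, 3 and 4 and slightly below it in pair 2. The median of the hepatocyte markers is highest in pair 2.

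Other S100 genes outside the 10 members were S100A1, S100A3 and S100A5, and 0 of these 3 were called. S100A3, a protein of hair cuticle whose gene lies within that of S100A4, had pair differences of -0.07, -0.25, -0.20 and 0.13 and a log2 FC of -0.10 ± 0.17 (adjusted p in limma of 0.587). For S100A1, known from striated muscle, the log2 FC came to 0.048 ± 0.10, and for the weakly expressed S100A5 to 0.024 ± 0.035, with limma adjusted p of 0.645 and 0.576. A further 8 family genes were not analysed here.

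Annexins are the best-known membrane partners of S100 proteins. Of 13 listed, 11 were measured and 0 were called, with 2 at an unadjusted p under 0.05 (16% of all genes) and a median log2 FC of 0.0079. ANXA9, named after its values were seen, had the largest of these log2 FC, with pair differences of 0.060, 0.38, 0.33 and 0.28 and a mean of 0.26 ± 0.14 (adjusted p in limma of 0.085). ANXA5, ANXA2, ANXA4 and ANXA7, the most highly expressed, had log2 FC of 0.0079 ± 0.18, -0.0059 ± 0.17, 0.16 ± 0.11 and 0.0069 ± 0.10, and of these ANXA4 was higher in 4 of 4 pairs (adjusted p in limma of 0.219). Among 2300 genes outside the family with a mean level within 1 log2 unit of S100A16, the gene with the most similar pair differences was ANXA3, at a root mean square distance of 0.062. Its pair differences were 0.27, -0.19, 0.27 and 0.42. C12orf75 and DBN1, which encodes the actin-binding protein drebrin, came next at 0.074 and 0.083. This likeness rests on 4 pairs. Of the 11 annexins, 9 were higher with pGRHL2 in pair 1, 8 were lower in pair 2 and 9 were higher in pair 4. These counts are for each pair by itself. Together, higher values in pairs 1 and 4 and lower values in pair 2 were seen for ANXA2, ANXA3, ANXA5, ANXA7 and ANXA11. The same held for 9.52% of all genes, and the other annexins departed from it in at least 1 of these pairs. In pair 3, 7 annexins were higher and 4 lower.

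Receptors reported to bind extracellular S100 proteins were represented by 6 of 8 listed genes, of which 0 were called and 1 had an unadjusted p under 0.05. That gene was MCAM, a cell adhesion molecule of the immunoglobulin superfamily, with pair differences of 0.39, 0.23, 0.31 and 0.16 and a log2 FC of 0.27 ± 0.10 (adjusted p in limma of 0.059). BSG (basigin), NPTN and ALCAM had log2 FC of 0.034 ± 0.025, -0.14 ± 0.21 and -0.08 ± 0.13, none of them called. Intracellular partners were represented by 19 of 21 listed genes, of which 0 were called and 6 had an unadjusted p under 0.05, beside 16% of all genes. NCL, STIP1, MYH9 and MDM2, the most highly expressed, had log2 FC of -0.07 ± 0.05, -0.047 ± 0.025, 0.0018 ± 0.20 and 0.12 ± 0.21. DLC1, which binds S100A10, was named after its values were seen, since it was lower in 4 of 4 pairs by -0.19 to -0.26 (log2 FC of -0.22 ± 0.03, limma adjusted p of 0.063).

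Calcium sensors of other EF-hand families were represented by 17 of 18 listed genes, with a median log2 FC of 0.032. EFHD1, a mitochondrial EF-hand protein, was called higher, with pair differences of 0.81, 1.10, 0.81 and 0.83 and a log2 FC of 0.89 ± 0.14 (adjusted p in limma of 5.08e-04). It was the only gene of this list called, and was higher in every pair. CALM2, CAPNS1 and CHP1, which were among the most highly expressed, had log2 FC between 0.043 and 0.070 and were not called.

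Between the outermost members on chromosome 1 lie the genes of the cornified envelope, and 7 genes other than S100 genes were measured there. Of 47 protein-coding genes annotated there besides S100 genes, 6 were measured. All 7 measured genes were weakly expressed, with mean log2 values between -1.49 and 2.10. TCHH (trichohyalin), a hair follicle and tongue protein with an S100-like EF-hand domain at its start, was called higher. It was the 1 gene called of these 7, beside 1.69% of all genes called higher. Its pair differences were 0.10, 0.12, 0.07 and 0.08 and its log2 FC was 0.09 ± 0.02 (adjusted p in limma of 0.0054). With trends on level and transcript length removed, TCHH was no longer called (adjusted p in limma of 0.0502). FLG-AS1, HRNR and FLG, the antisense RNA of filaggrin, hornerin and filaggrin itself, had log2 FC of 0.049 ± 0.025, 0.056 ± 0.077 and 0.038 ± 0.060 and were not called. FLG-AS1 shares 10.6% of its exon bases with FLG, and FLG 12.4% with FLG-AS1, and over those bases reads counted without strand cannot be assigned to either gene.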

How the data were processed

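RNA-seq was performed on 8 libraries of HepG2 cells. Per the methods of the study and the submitters' processing notes, the authors used HISAT2 (2.2.1 in the notes) with hg38 for mapping, counted them over exons with HTSeq 0.9.1 in union mode without strand, removed genes with few reads and related DESeq2 rlog values to transcript length. The deposited table held these log2 values, although it is named as FPKM. Among 1295 genes with an SD of the pair differences under 0.02, the slope of mean level against log2 transcript length was -0.77. A stray character was removed from 1 value. Depth was unknown.

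The means of same-numbered libraries were identical in 17561 of 17561 genes (largest spread 1.5e-13), a step the methods do not describe, so that deviations within a pair are opposite by construction and the correlation check for pairing is void. Limma 3.58.1 (R 4.3.3) was fitted to all genes with the replicate number as a block, eBayes with trend and Benjamini-Hochberg adjustment, and was tested on simulated data. The study calls the 4 replicates independent biological replicates. Coordinates are from GENCODE release 44 (hg38), which held 99.9% of the symbols, and promoters from RefSeq, identical to hg38 in 14 of 14 windows.

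The members and lists were chosen with earlier results of these data known. Genes named were the members, other S100 genes, GRHL2, called genes of each list and up to 4 more with the highest level, neighbours on chromosome 1, and the 3 genes most like the member with the largest change. Some genes that this rule names are not reported here. Alternatives were arrayWeights, robust eBayes, a fit without the block, 2 scalings, 2 level filters, removed trends, a stricter threshold and leaving out each replicate.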

Additional observations from a re-analysis of the deposited data

Results flagged for a closer look

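With mirrored values, a single deviating library can only be seen as 1 pair difference that stands apart from the remaining 3. Among 14 genes examined, 2 met this criterion (chance gives about 1 in 20). One was S100P, whose difference in pair 3 was -0.27 while the remaining pairs lay between 0.18 and 0.27. Its log2 FC without replicate 3 was 0.22 (limma adjusted p of 0.138). The other was S100A5, a weakly expressed family gene, whose difference in pair 4 was 0.076 while the remaining pairs lay between 0.0029 and 0.0104.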

How the results depend on the processing

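The count of members called higher was 0 under every setting tried. The count called lower was 0 with the replicate block and 1 without the block, the gene being S100A13 (limma adjusted p of 0.0027), because that fit counts degrees of freedom that the removed pair means do not leave. With the block, the adjusted p of S100A13 ranged from 0.089 (level and length trends removed) to 0.346 (without replicate 2). It was not tested with a mean value of at least 5, which also leaves out S100A9. Under the settings other than leaving out a replicate, all other members' mean differences kept their direction and their side of the threshold. Across the 4 fits that left out a replicate, the counts of members called were 0 in both directions, and 6 of 40 values changed sign, with none called. The log2 FC of S100A6 then ranged from -0.11 to 0.18 (-0.023 without replicate 1), of S100A10 from -7.9e-05 to 0.14, of S100A4 from -0.10 to 0.028, of S100A14 from -0.093 to 0.013 and of S100A2 from -0.026 to 0.12. Of the other S100 members, S100P ranged from 0.040 to 0.22, S100A16 from 0.13 to 0.30, S100A11 from 0.11 to 0.29 and S100A9 from 0.013 to 0.026. TCHH lost its call with trends removed and was not tested under either filter on the mean, whereas EFHD1 was called in every fit. Over all genes, 297 higher and 88 lower calls became 1821 and 1427 without the block. With arrayWeights they became 503 and 221, and at the stricter threshold of 0.01 they became 77 and 10. Trend removal left 179 higher calls, the filter at a mean of 5 left 63, and scaling to equal totals with GRHL2 set aside gave 495. Higher calls numbered 79 to 156 with a replicate left out, where lower calls numbered 8 to 68. The causes of these changes were not tested. Depth was unknown, so that how far it limits S100A9 and S100A13 could not be computed.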

Other observations

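S100A10 is known as a docking site for plasminogen, and the genes of the plasminogen system were measured in the same libraries. Of 6 genes, 0 were called by limma and 0 had an unadjusted p under 0.05. PLAUR, the urokinase receptor, and PLAU, urokinase, had log2 FC of 0.032 ± 0.29 and 0.0082 ± 0.24 (n = 4 pairs), and PLAT, tissue plasminogen activator, of 0.045 ± 0.11. Of the 6 genes, 5 were lower in pair 2, with a median of -0.20, and 4 were higher in pair 4, with a median of 0.09.

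Among cholangiocyte markers, 0 of 4 were called and 1 had an unadjusted p under 0.05, beside 16% of all genes. That gene was KRT7, with pair differences of 0.20, 0.068, 0.34 and 0.15 and a log2 FC of 0.19 ± 0.12 (adjusted p in limma of 0.097). The study, which used DESeq2 on counts as well as ChIP-seq and RT-qPCR, names KRT7 among the genes that GRHL2 induces in HepG2 cells. Limma on the deposited rlog values is another measure, so the missing call does not contradict that result. KRT19, another keratin of bile ducts, had pair differences of 0.32, -0.34, 0.14 and 0.48, and the medians of the 4 markers were 0.14, 0.09, 0.07 and 0.23 in pairs 1 to 4. Of the leukocyte and fibroblast markers, 2 of 6 each were measured and 0 were called. LYZ, at a mean log2 value of 13.3, and CD14, at 4.02, had log2 FC of 0.06 ± 0.18 and -0.028 ± 0.033. COL1A1 and PDGFRB had log2 FC of 0.20 ± 0.10 and -0.0058 ± 0.16. Of the other Grainyhead genes, GRHL1 and GRHL3 had log2 FC of -0.10 ± 0.10 and 0.11 ± 0.08, neither of them called.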
